A study of Caenorhabditis elegans with 2 samples.

Results

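The genes described here encode the translation factors and the aminoacyl-tRNA synthetases of Caenorhabditis elegans, and the measurement is the binding of the Zic-family zinc finger protein REF-2 at their promoters. They were picked by name from the protein-coding genes of WBcel235: a letter followed by ars and a single digit for the tRNA synthetases, and the prefixes eif, ife, iff and eef for the initiation and elongation factors. This name rule was itself chosen with earlier results of these data known. The rule found 70 genes among 19973 on the 6 nuclear chromosomes, 32 tRNA synthetase genes and 38 factor genes. Names outside these patterns, such as glp-4 for a valine tRNA synthetase and inf-1 for the helicase eIF4A, fell outside the rule.

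REF-2 occupancy was measured with ChIP-seq, the sequencing of DNA that precipitates with a protein, in whole hermaphrodites collected as late embryos 3 hours after eggs were released with bleach. The only group was strain OP520, with the allele unc-119(tm4063) and the integrated transgene wgIs520, from which REF-2 is made with a GFP-FLAG tag at its C-terminus, and the tagged protein was precipitated through GFP. The group had 2 biological replicates and no second condition, and the labels do not say whether these came from separate cultures. Values come from a mixture of all embryonic cell types, so a strong signal in few cells cannot be told apart from a weaker signal in many. Control libraries and reads were not analysed here, and the depth of each library is unknown.

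Translation starts when eIF2 delivers the initiator tRNA to the small ribosomal subunit, helped by eIF1, eIF1A and the large scaffold eIF3, and when eIF4E binds the mRNA cap. The exchange factor eIF2B recharges eIF2 with GTP and is the step that cells restrain under stress. During elongation eEF1A brings each charged tRNA to the ribosome, the eEF1B proteins recharge eEF1A, and eEF2 moves the ribosome along. The eEF1G protein belongs to the same complex as eEF1B. The charged tRNAs are made by the tRNA synthetases, which join each amino acid to its tRNA in the cytoplasm and in mitochondria. Protein synthesis is needed in nearly every cell, although some of these genes, such as iff-1, are known for a role in the germ line. REF-2 is best known for roles in epidermal cells and in the making of neurons. Where the 70 genes are expressed was not measured here.

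REF-2 summits, the points of highest signal within the deposited peaks, lay at the promoters of 17 of the 70 genes. The promoter was taken as the 1000 bp before a gene's 5' end and the first 200 bp after it. The optimal list, which the authors thresholded on reproducibility between the replicates, held 2129 peaks. The 17 genes are 24.3% of the 70 (95% exact interval 14.8 to 36), beside 6.29% of all protein-coding genes. Factor genes had 11 of 38 (28.9%, 15.4 to 45.9) and tRNA synthetase genes 6 of 32 (18.8%, 7.21 to 36.4), and these intervals overlap. The intervals cover counting error only, and neighbouring genes that share a summit are not independent. Of the elongation factor genes 4 of 6 had one (66.7%, 22.3 to 95.7), and of the eIF2 subunit genes none of 3 (0 to 70.8). No test was applied to these shares, since the design has 1 group and genes are not replicates. Because the rule was chosen with earlier results of these data known, the shares are descriptions and the intervals do not cover that choice.

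**Figure D1:**
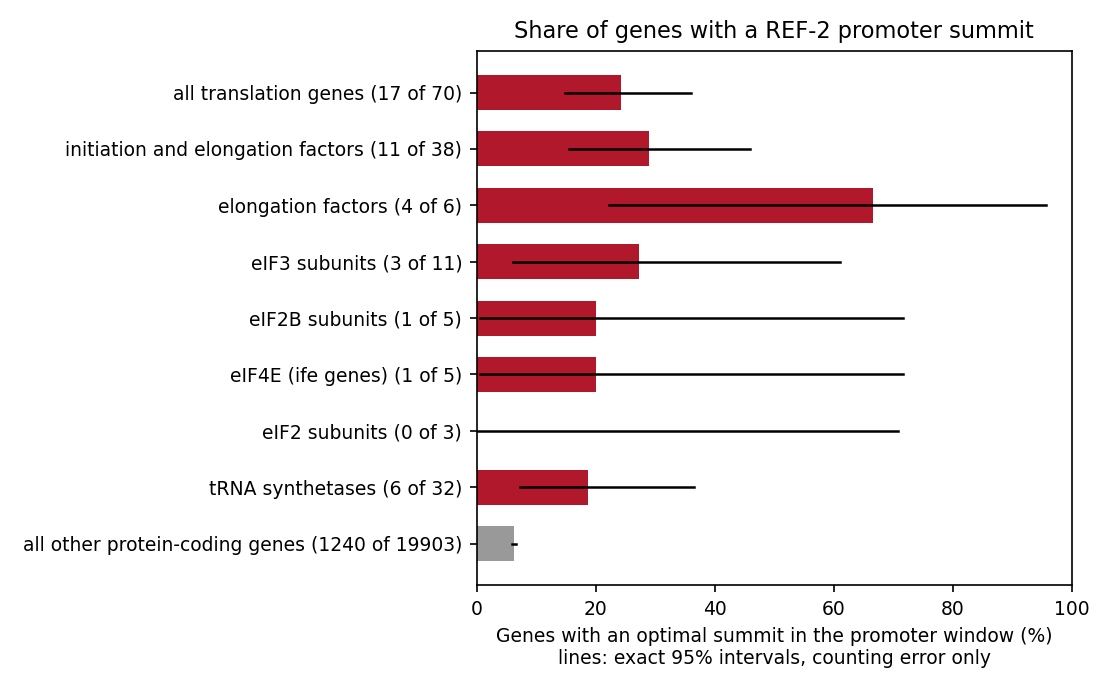
Share of genes with an optimal REF-2 summit in the promoter window, in percent, for the translation genes as a whole, for their subgroups and, in grey, for all other protein-coding genes. Bars are shares and black lines are exact 95% intervals for counting error; the bar of all 70 genes reaches 24.3% and that of the 19903 other genes 6.23%.

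The DNA around 6 of these summits is shown to let the bases at the point of highest signal be read beside the values. Each sequence reaches 50 bases to either side of the summit, read from the RefSeq copy of WBcel235 on the strand of the named gene, so that the summit is base 51. The set holds the strongest summit of the tRNA synthetases, of eIF5A, of the elongation factors and of the cap-binding proteins. It also holds a summit of eIF3 that is not its strongest, and eef-1G, where the motif matches overlap. All 3 windows with GCACATAC are in the set, so it does not show how common the matches are over the 17 summits. The windows are chrIV:390452-390552 for ears-2, chrII:8561375-8561475 for iff-2, chrII:14795139-14795239 for eif-3.B, chrX:7823255-7823355 for eef-1A.2, chrV:10965651-10965751 for eef-1G and chrX:1103882-1103982 for ife-4. Genes ears-2 and iff-2 are on the minus strand and the others on the plus strand. Capitals mark CTGCGT or GCACATAC on either strand; no window holds CAGCNGG, the core letters of sites that Zic proteins are known to bind in mammals.
ears-2: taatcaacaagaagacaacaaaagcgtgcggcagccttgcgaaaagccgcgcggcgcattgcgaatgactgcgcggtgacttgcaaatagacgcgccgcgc
iff-2: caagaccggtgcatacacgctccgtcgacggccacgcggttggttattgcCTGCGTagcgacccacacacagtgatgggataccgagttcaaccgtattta
eif-3.B: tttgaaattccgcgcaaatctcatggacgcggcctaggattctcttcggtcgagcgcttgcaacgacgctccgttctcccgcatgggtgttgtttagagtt
eef-1A.2: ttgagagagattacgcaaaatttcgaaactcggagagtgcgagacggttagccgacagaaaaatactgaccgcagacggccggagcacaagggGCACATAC
eef-1G: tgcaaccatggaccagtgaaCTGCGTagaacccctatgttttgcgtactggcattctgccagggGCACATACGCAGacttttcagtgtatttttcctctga
ife-4: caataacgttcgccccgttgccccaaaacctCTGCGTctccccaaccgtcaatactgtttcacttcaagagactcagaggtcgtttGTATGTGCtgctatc

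The core CAGCNGG, searched on both strands, was found in none of the 17 windows of this length at the translation gene summits (upper limit of the exact interval 19.5%). It was found in 5.82% of the windows around all 2129 optimal summits and in 1.49% of windows of the same length centred 215 bp upstream of every protein-coding gene, the median distance of the 17 summits. Over whole promoter windows it was present in 2 of the 17 genes (11.8%), in 11 of the 53 translation genes without an optimal summit (20.8%) and in 19.9% of all genes. No match says only that these letters are not in these windows. CTGCGT, written ACGCAG on the other strand, was present in 5 of the 17 windows, those of iff-2, eef-1G, eif-2Bgamma, ife-4 and aars-1. It was present in 14.7% of all optimal summit windows and in 2.75% of the upstream windows. GCACATAC was present in 3 of the 17, at eef-1A.2, eef-1G and ife-4, against 15 of 2129 optimal windows (0.705%) and 0.125% of upstream windows. In eef-1G the GCACATAC and a CTGCGT on the opposite strand overlap. The letters of CTGCGT and GCACATAC were picked after the windows had been read, so their counts are descriptions only. Base composition went with summits in general: the median GC content was 49.5% around the 17 summits and 49.5% around all optimal summits, while the upstream windows of all genes had 33.7%.

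Among the tRNA synthetases, the glutamate enzyme gene ears-2, whose product RefSeq places in mitochondria, had the highest signal. Signal is the authors' value for each peak; its scale is not given in the sources used here. At ears-2 (WBGene00001338, chromosome IV, 388686 to 390468) the signal was 276 in replicate 2 and 300 in replicate 1, with ranks of 27 and 14 among 30000 peaks, and 575 in the pooled data, rank 19. Its summit was at -34 bp, negative meaning upstream of the 5' end, in a gap of 91 bp between ears-2 and the divergent gene uncp-18, so the peak lay in the promoter windows of both genes. Next was kars-1 (WBGene00002238, chromosome II, 7070183 to 7072415), which encodes the lysine enzyme, with 85.0 in replicate 2, 95.1 in replicate 1 and 180 pooled. Its summit at -459 bp also lay in the window of kat-1, a gene for a thiolase, at -940 bp from that gene. Both replicates thus ranked ears-2 well above kars-1.

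Both alanine enzymes had a summit. The gene for the mitochondrial one, aars-1 (WBGene00000196, chromosome II, 11460205 to 11464497), had 84.5 in replicate 2 and 53.2 in replicate 1, pooled 137, at -131 bp in the 396 bp gap to the divergent gene rga-1. The cytoplasmic one, aars-2 (WBGene00000197, chromosome I, 3983183 to 3986581), had 68.8 in replicate 2 and 60 in replicate 1, pooled 127, at -139 bp with no other gene's window over it. The remaining pair were mars-1 for methionine (pooled 132, at -468 bp, shared with F58B3.6) and yars-2 for tyrosine (pooled 127, at -32 bp). In mars-1 the replicates were almost equal, with 68.0 in replicate 2 and 68.5 in replicate 1; yars-2 had 60.5 in replicate 2 and 66.0 in replicate 1. Apart from ears-2 and kars-1, the synthetase peaks were thus in the weaker part of the optimal list, between ranks 1214 and 1428 of 2129.

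The other 26 synthetase genes had no optimal summit at the promoter. In the longer pooled list of 30000 peaks, which by its label includes background, 16 of the 32 synthetase genes had a summit (50%, 31.9 to 68.1), beside 35% of all genes, a share that lies inside this interval. The 10 of them without an optimal summit had signals of 38.3 at dars-1 to 71.3 at sars-1, the serine enzyme. Alanine was the only amino acid for which 2 genes had an optimal summit. The second glutamate gene, ears-1, appeared in replicate 1 alone, at rank 29080, and the second tyrosine gene, yars-1, in no list. Of the 32 synthetase genes, lars-1, pars-1, pars-2, rars-1 and rars-2 likewise appeared in the list of a single replicate. Of the genes for phenylalanine, fars-3 reached 62.9 in the pooled list, and fars-1 had no promoter summit but an optimal one (172) inside the gene, 1773 bp downstream of its 5' end.

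Among the initiation factors, iff-2 and 3 subunits of eIF3 had the strongest summits. The gene iff-2 (WBGene00002065, chromosome II, 8559375 to 8561367) encodes eIF5A, a factor that helps the ribosome through difficult peptide bonds. It had 194 in replicate 2 and 210 in replicate 1, ranks 83 and 53, and 402 pooled, rank 64. The summit was at -58 bp from iff-2 and at -877 bp from F54C9.14, whose window it also entered. In both replicates iff-2 was second to ears-2 among the translation genes. Its paralogue iff-1, known for a role in the germ line, had no optimal summit and reached 53.3 in the pooled list, with 30.7 in replicate 2 and 24.2 in replicate 1.

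In eIF3, the subunit genes eif-3.E, eif-3.B and eif-3.C had optimal summits at -226, -215 and -214 bp. The first, eif-3.E (WBGene00001228, chromosome I, 10640465 to 10642281), had 138 in replicate 2 and 194 in replicate 1, pooled 336, rank 107. For eif-3.B (WBGene00001225, chromosome II, 14795404 to 14798235) the replicates were level, with 136 in replicate 2 and 133 in replicate 1, and 270 pooled. For eif-3.C (WBGene00001226, chromosome I, 9976426 to 9979662) replicate 2 had 84.8 and replicate 1 had 133, pooled 214. Only the eif-3.E summit was shared, with B0511.17. The other 8 subunit genes had none: eif-3.D (86.5), eif-3.H (60.7) and eif-3.G (52.2) appeared in the pooled list, eif-3.I in replicate 1 alone, and eif-3.F, eif-3.J, eif-3.K and eif-3.L in no list. An optimal summit of 234 lay inside eif-3.I, 2045 bp downstream of its 5' end, and counted as a promoter summit when any annotated transcript start was used.

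The genes of eIF1 and eIF1A, eif-1 (79.4) and eif-1.A (56.4), had a summit in the relaxed lists and none in the optimal list. The eIF2 genes eif-2beta (77.1), eif-2gamma (76.9) and eif-2alpha (66.7) all had a summit in the pooled list and none in the optimal list. The alternative initiator tRNA factor eif-2A appeared in replicate 1 alone, at rank 25096. The exchange factor eIF2B had 1 gene of 5, eif-2Bgamma (WBGene00004090, chromosome II, 6965800 to 6967648), with 75.6 in replicate 2, 96.4 in replicate 1 and 169 pooled at -750 bp. Its other genes were eif-2Bbeta (69.1), eif-2Bepsilon (42.8) and eif-2Bdelta (37.7) in the pooled list and eif-2Balpha in replicate 1 alone. A second eif-2Bgamma summit (127, at -953 bp) lay 43 bp from the U1-type snRNA gene sup-39. The stronger eif-2Bgamma summit lay in exons of sup-39 and of the noncoding RNA gene C15F1.14, and in an intron of the neighbouring gene C15F1.5. Of the 405 stretches of 36 bases in this peak, 312 (77.0%) occur once in the genome, whereas every stretch was unique in the other 16 peaks. The gene behind the eif-2Bgamma signal is uncertain, because the handling of reads with several matches is not given in the sources used here.

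Of the 5 genes for the cap-binding protein eIF4E, ife-4 alone had an optimal summit in its window. On chromosome X (WBGene00002062, 1104212 to 1106251) it had 71.1 in replicate 2 and 78.6 in replicate 1, pooled 152, at -280 bp. For ife-3 an optimal summit of 233 lay just outside the window, at -1046 bp. The gene ife-2 reached 67.2 in the pooled list, and ife-1 and ife-5 appeared in no list. The helicase gene eif-4A3 (WBGene00022029, chromosome I, 629465 to 636345), part of the exon junction complex that marks spliced mRNA, had 168 pooled at -492 bp. That summit lay in the 5' UTR of the divergent gene vps-20, which encodes an ESCRT-III protein, 33 bp past its 5' end. Among the 34 genes with a summit in both replicates it differed most, with 96.1 (rank 683) in replicate 2 and 23.6 (rank 18659) in replicate 1, where the nearest summit was at -683 bp instead.

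Among the elongation factors, both eEF1A genes and the genes for eEF2 and eEF1G had optimal summits of similar strength. Pooled signals were 223 at eef-1A.2, 210 at eef-1A.1, 194 at eef-2 and 193 at eef-1G. The pair of eEF1A genes, which encode nearly the same protein, had their summits at similar distances, -349 bp in eef-1A.2 (WBGene00001169, chromosome X, 7823654 to 7825769) and -380 bp in eef-1A.1 (WBGene00001168, chromosome III, 6970026 to 6971712). In eef-1A.2 the replicates gave 120 in replicate 2 and 108 in replicate 1, and in eef-1A.1 they gave 88.5 in replicate 2 and 118 in replicate 1. The eef-1A.1 summit was 7 bp from the microRNA gene mir-5549 and also in the window of rfc-4, which encodes a replication clamp loader subunit, at -161 bp from that gene. The eef-1A.2 summit was in no other protein-coding gene's window, but the noncoding RNA gene R03G5.8 lay within 200 bp of it.

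In eef-2 (WBGene00001167, chromosome I, 9163531 to 9166952) the summit was at -31 bp, in the 264 bp gap to clsp-1, a gene for a claspin-type checkpoint protein, and the signal was 126 in replicate 2 and 70.5 in replicate 1. In eef-1G (WBGene00008920, chromosome V, 10965719 to 10967922) it was at -18 bp, in the 179 bp gap to ctf-4, named for a replication fork protein, with 90.4 in replicate 2 and 92.7 in replicate 1. Because these summits lie between divergent genes, they cannot be assigned to the elongation factor rather than to its neighbour. The eEF1B gene eef-1B.1 fell just short, with a pooled signal of 105.2 at rank 2148, where the weakest optimal peak has 105.5 at the end of the 2129. It had 62.7 in replicate 2 and 44.3 in replicate 1. The other eEF1B gene, eef-1B.2, appeared in replicate 1 alone, at rank 26770.

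**Figure D2:**
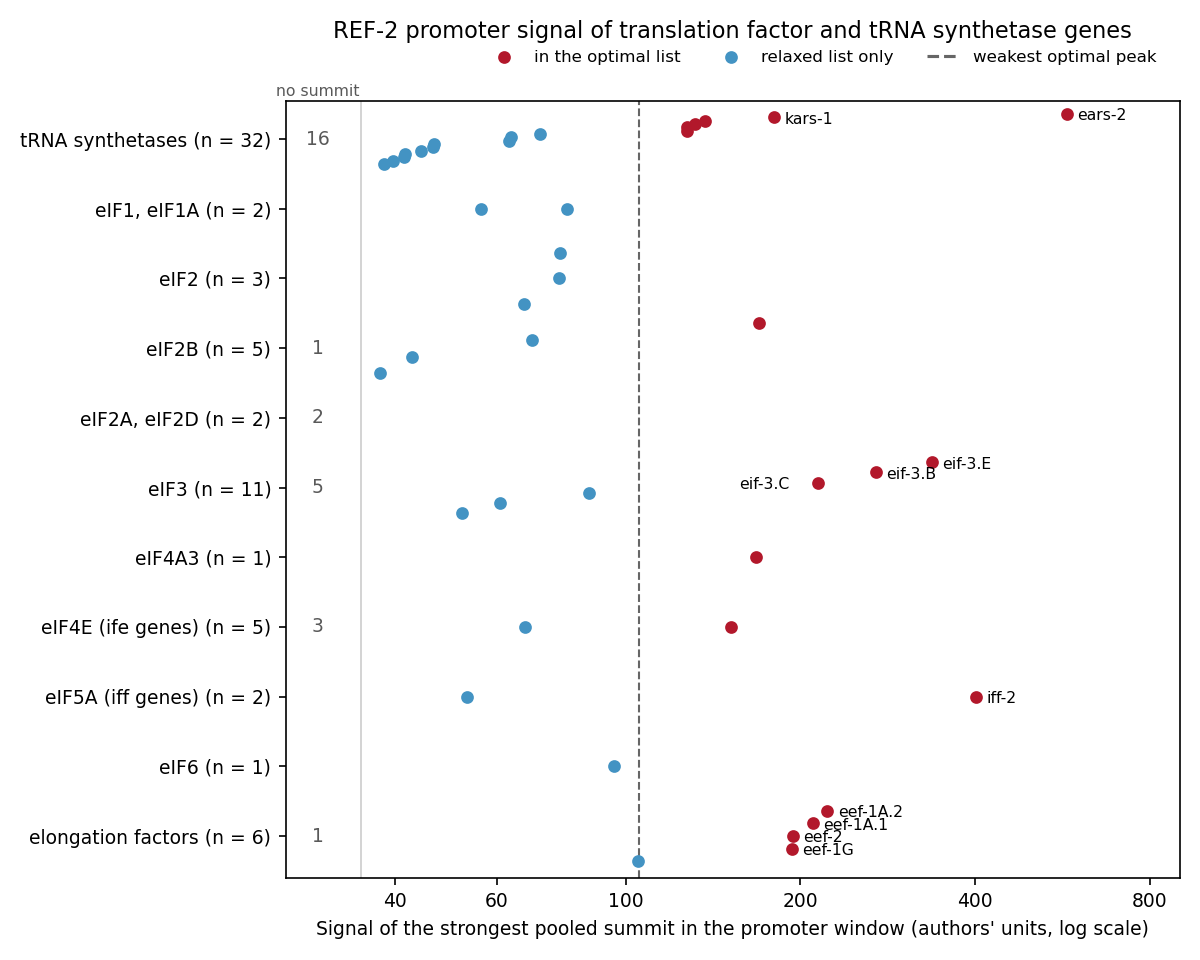
Pooled signal of the strongest summit in the promoter window of each gene, on a log scale in the authors' units, by subgroup. Red points are genes with an optimal summit and blue points are genes with a pooled relaxed summit but no optimal one. The dashed line is the weakest optimal peak (105.5) and grey numbers at the left count genes with no pooled summit. The genes ears-2 (575) and iff-2 (402) stand furthest right.

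By strength, 2 of the 70 genes were at the 100 strongest optimal peaks (2.86%, beside 0.516% of all genes), 7 at the 500 strongest (10% beside 1.97%) and 13 at the 1000 strongest (18.6% beside 3.57%). The median optimal signal was 193 over the 17 genes and 162 over all 1257 genes with an optimal promoter summit. In the pooled relaxed list 42 of the 70 genes (60%, 47.6 to 71.5) had a promoter summit, beside 35% of all genes, with a median signal of 78.2 over those 42 genes and 60.2 over all genes with one. Of the 70 genes, 18 (25.7%) had no summit in any list, beside 54.2% of all genes. Beyond those already named they were cars-1, dars-2, eif-2D, fars-2, lars-2, nars-2, qars-1, sars-2 and wars-1, together with fars-1 and ife-3, whose optimal summits lay outside the window.

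All 17 summits were upstream of the 5' end of their gene, at a median of -215 bp, beside -250 bp over all genes with an optimal promoter summit. Within 100 bp of the 5' end were 5 of 17, those of eef-1G, eef-2, yars-2, ears-2 and iff-2, beside 18.3% of all such genes. Apart from the eif-2Bgamma and eif-4A3 summits, all lay outside annotated genes. Of the 17, 10 (58.8%) were shared with the window of another protein-coding gene, beside 49.6% of all genes with an optimal promoter summit, and for these 10 the target gene is not resolved. A summit within 200 bp of a gene for a tRNA, snoRNA, snRNA, rRNA or microRNA was found at 2 of the 17, eef-1A.1 and eif-2Bgamma, beside 5.49% of all such genes, and none of the 17 was near a tRNA gene, beside 2.70%.

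**Figure D3:**
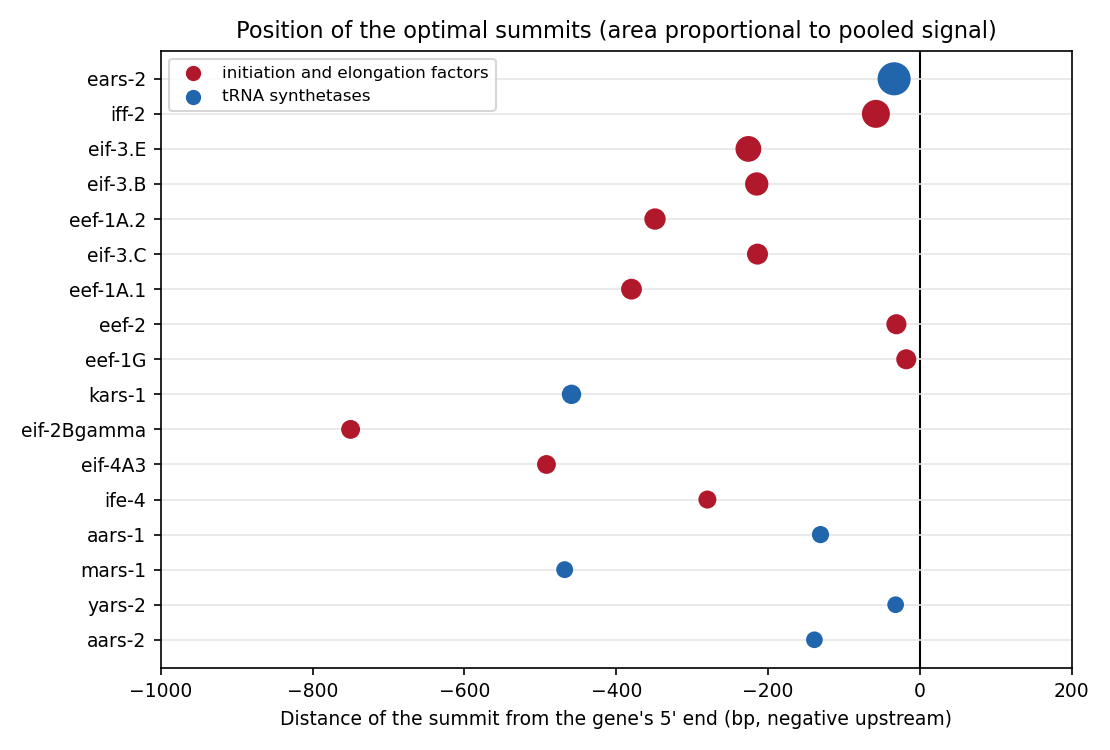
Distance in bp from the gene's 5' end to the optimal summit, negative upstream, for the 17 genes ordered by pooled signal, with point area proportional to that signal. All points lie left of the 5' end, from -750 bp at eif-2Bgamma to -18 bp at eef-1G.

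Worm genes often sit in tight runs that are transcribed together from the promoter of the first gene, so the arrangement of the genes was compared. A tight run was taken as a gap of at most 500 bp to the next gene upstream on the same strand, and a divergent pair as a gap of at most 1000 bp to an upstream gene on the other strand. Of 19 translation genes behind another gene in a tight run, 3 had an optimal summit (15.8%), namely eif-3.C, yars-2 and eif-2Bgamma, beside 150 of 4106 such genes in all (3.65%). Divergent genes had 8 of 31 (25.8%), beside 531 of 4246 (12.5%), and genes in neither arrangement had 6 of 20 (30%), beside 576 of 11621 (4.96%). Among the 19, the first gene of the run had an optimal summit only for gars-1, the glycine enzyme gene, whose run starts at prp-19 with a signal of 554. That summit was 9061 bp upstream of gars-1. First genes of runs were not counted over all 4106 such genes, so 1 of 19 cannot be called low or high.

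The replicates shared most of the strong translation gene summits. Replicate 2 had a promoter summit at 40 of the 70 genes (57.1%) in its relaxed list, beside 34.3% of all genes, and replicate 1 at 45 (64.3%), beside 35.4%. Both replicates had one at 34 genes (48.6%), beside 24.9% of all genes. Among as many of the strongest peaks of each replicate as the optimal list holds, replicate 2 marked 18 of the 70, beside 5.98% of all genes, and replicate 1 marked 17, beside 6.51%. Of the 17 genes with an optimal summit, 16 were among the strongest of both replicates, and eif-4A3 was missing from those of replicate 1. At these 17 genes the optimal peaks have the signals and ranks of the pooled data of the same 2 replicates. This overlap is therefore not independent of the list. A peak in the optimal list need not be strong in both replicates, since eif-4A3 had rank 18659 in replicate 1. The same count was not made over all genes with an optimal summit. Replicate 2 added eef-1B.1 and replicate 1 added eif-6, the factor that keeps ribosomal subunits apart, which had 32.6 in replicate 2, 56.5 in replicate 1 and 95.6 pooled.

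At the 34 genes with a summit in both, the log2 ratio of replicate 2 over replicate 1 had a median of -0.04 (SD 0.57), beside 0.17 over the 4973 genes with a summit in both. The signal was higher in replicate 2 at 15 of the 34 and higher in replicate 1 at 19. It differed by more than 2-fold at 1 gene, eif-4A3 (log2 ratio 2.02), beside 4.24% of all genes. When each signal was divided by the median of its list, the count was 3 of the 34, so it depends on the scaling. The 4.24% holds for the signals as deposited, and no share over all genes was computed after this division. The next largest ratios were 0.83 at eef-2 and 0.67 at aars-1, and on the other side -0.99 at eif-2gamma, -0.80 at eif-6 and -0.73 at sars-1. With 1 library on each side these differences have no test.

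**Figure D4:**
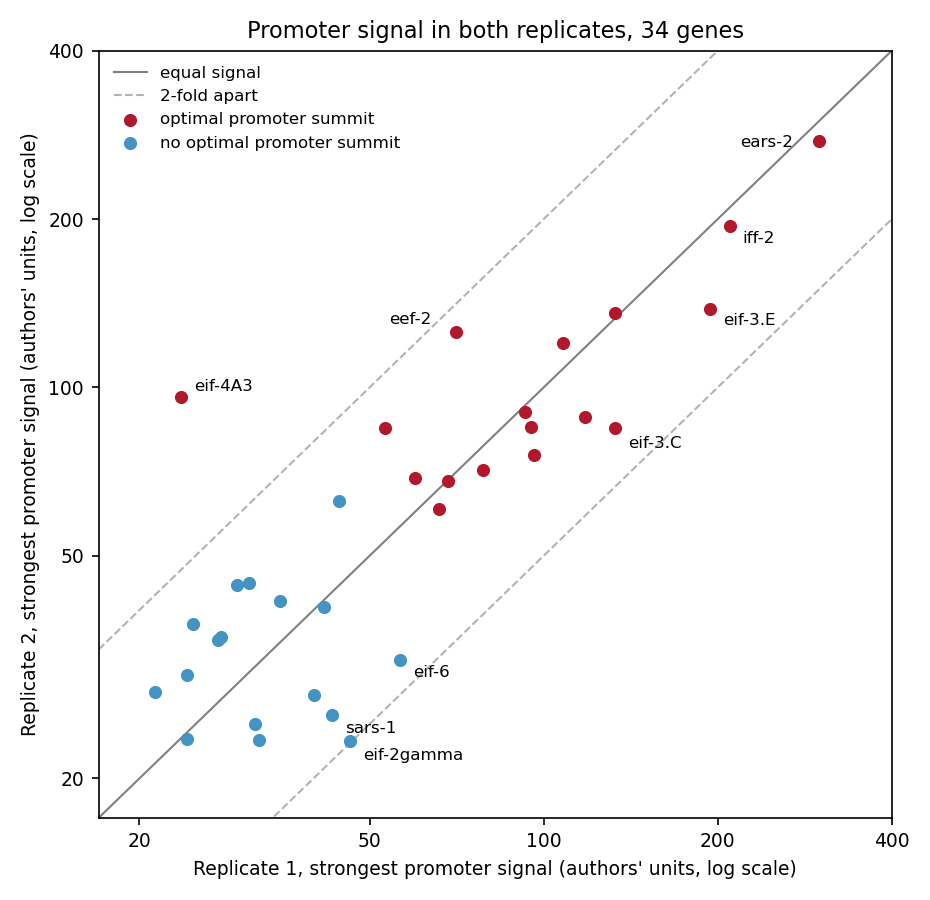
Strongest promoter signal in replicate 2 against replicate 1, in the authors' units on log axes, for the 34 genes with a summit in both, red where the gene has an optimal summit and blue where it has none. The solid line marks equal signal and the dashed lines a 2-fold difference, which eif-4A3 alone exceeds in the signals as deposited, with 96.1 in replicate 2 and 23.6 in replicate 1.

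A second list held other genes of the same process that the name rule leaves out, such as release factors, poly(A)-binding proteins and the kinases that restrain initiation. Of 27 such genes, 10 (37%) had an optimal promoter summit, beside the 6.29% of all genes. With the stronger 50% of the optimal list the count was 6, beside 3.80% of all genes. The list was written gene by gene, not taken from an annotation class, and with earlier results of these data known. Its share is a description and no independent support for the share of the 70. A further 7 names on the list were left out, being absent from the annotation or already among the 70 genes. The strongest were ifet-1, a partner of eIF4E (357, a summit shared with the ribosomal protein gene rps-1), and drr-2, an eIF4H-type factor (331, shared with set-16). The release factor genes followed with 236 at erfa-3 (shared with math-33) and 108 at erfa-1 (shared with gad-1), along with the mitochondrial elongation factor gene gfm-1 (223, shared with rict-1) and the poly(A)-binding protein gene pab-2 (220). The kinase genes pek-1, which phosphorylates eIF2 under stress in the endoplasmic reticulum, and mnk-1 had 168 and 111. The last pair were tufm-2 (141, shared with exoc-7) and elpc-1 (137, shared with Y110A7A.9), a subunit gene of a complex that modifies tRNAs. Among the 17 without one were pab-1, gcn-1, gcn-2, let-363, which encodes TOR, and rsks-1, the S6 kinase gene.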

How the data were processed

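REF-2 ChIP-seq peaks from 2 biological replicates of 1 group were used. The authors deposited peak lists in narrowPeak format on ce11 and ce10; the ce10 lists were not used here. Per the deposited file list, a relaxed list of 30000 peaks was made for each replicate and for the pooled replicates, and the optimal list was thresholded on reproducibility (IDR) between replicates; each list derives from the alignments and 1 undescribed file common to both replicates. The deposited signal and the deposited −log10 q-value of each peak are the authors' own; the q-values of the 17 genes' peaks ran from 1.67 to 2.87 on that scale. The caller, the aligner and any use of a control: not given in the sources used here. Depth is unknown, so precision from depth cannot be stated.

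Gene models came from Ensembl release 115 on WBcel235, the assembly of ce11, with sequence and product names from RefSeq; every peak fell within the chromosome lengths. Coordinates are 1-based. Summits were assigned to every promoter window that held them, and the strongest in a window gave the gene's value. Ranks run within a list by signal. Motifs were searched on either strand. Shares carry exact Clopper-Pearson 95% intervals. Named were all genes with an optimal summit, the highest below it, those in no list, the largest replicate differences, and sharing genes; other members were named after their values were seen, to complete a family. The gene arrangement, the uniqueness of peak sequence and the nearest summits outside windows were added after seeing the data. The lists and the rule were chosen with earlier results of these data known. The window rule was tested on simulated data. Python 3.11.15, pandas 2.3.3 and scipy 1.17.1 were used.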

Additional observations from a re-analysis of the deposited data

How the results depend on the processing

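The count of 17 genes with an optimal summit lay between 13 and 18 under the 9 alternatives, and the share of all genes between 3.80% and 8.61%. Leaving out a replicate, with as many of the other's strongest peaks as the optimal list holds, gave 17 to 18 genes, 6 synthetase genes either way, 11 to 12 factor genes, 17 to 19 summits, 40 to 45 genes in the relaxed lists and 9 to 10 genes of the second list. With the stronger 50% of the optimal list, 2 of the 32 synthetase genes (ears-2 and kars-1) were left, beside 3.80% of all genes. The second list then had 6 of 27, while all 11 factor genes were kept. A window of 500 bp lost eif-2Bgamma, a window of 2000 bp added ife-3, and the nearest 5' end within 5000 bp added eif-3.I, iff-1 and nars-1 and lost eef-1A.1 and eif-4A3. Without summits near small noncoding genes 15 genes were left, without eef-1A.1 and eif-2Bgamma. Dividing each signal by the median of its list gave 3 genes over 2-fold apart in place of 1, and a median log2 ratio of -0.27 in place of -0.04; the shift between the list medians is 0.23. Over all 9 results, 51 of the alternatives stayed within 1.5 times the reported count or 1 SD of the ratios, and 3 moved. That SD is the spread over genes and not that of a median, so it is a loose limit for the median ratio. The 3 were the synthetase and second list counts at the stronger 50%, and the 2-fold count after division. The alternatives for the second list and a motif window of 100 bp to either side (again 0 of 17) were chosen after seeing the data. No paired analysis was possible because there is only 1 group and the results come from no test. Without depth, a gene in no list cannot be called unbound.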
